A study of Mus musculus with 12 samples.

Results

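Of 9459 loci that carried a reference gene name and reached a mean normalised read count of at least 5 in both embryonic stem cells (ESCs) and Eomes-positive (Eo+) cells, 54 had a mean in Eomes-negative (Eo-) cells of at most 0.5 of each of the other means. These 54 loci were chosen by that rule from the group means, and they are 0.571% of the loci that could have been chosen. The normalised read count is the number of reads at a locus divided by a single constant per library, and the values of a library add up to a similar total in all 12. The whole normalised table held 18325 named loci. Of the 54 members, 53 were loci of protein-coding genes (PCGs) and 1, Gm26917, was an annotated long noncoding RNA (lncRNA). All 54 passed the filter on low values, and the lowest raw count of a member in any library was 185.

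Poly(A) RNA of 12 libraries was sequenced from a mouse ESC line (C57BL/6) in which a green fluorescent protein (GFP) cassette had been placed at the start of the endogenous Eomes gene. Eomes encodes a T-box factor that is switched on in mesendoderm (ME), the progenitor of mesoderm and endoderm. Undifferentiated ESCs (day 0) had been maintained on mouse embryonic fibroblast feeder cells, in a medium with leukemia inhibitory factor that the methods do not list for differentiation. Cells were differentiated as hanging drops, and on day 3 they were sorted by GFP into Eo+ and Eo- fractions. All 3 groups therefore carry the same reporter allele, and the study rests on 1 reporter line. ESC libraries differ from day 3 libraries in day, medium and sorting together, and the parts of these cannot be told apart. Each group had 4 libraries, with replicate numbers 1, 2, 5 and 6, and the 12 libraries came from 4 differentiation sets. The p-values given measure only the spread between these libraries.

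An ESC that leaves pluripotency passes through an epiblast-type state. From there, cells can enter the primitive streak programme, in which Nodal, Wnt and BMP signals induce Eomes and the cells loosen their contacts and begin to migrate, or remain epiblast-type or take an ectoderm path. Genes for matrix, receptors and immediate early transcription factors are used in the primitive streak programme and also in ESCs in culture. A transcript with its lowest level in the Eo- fraction is one that both the starting cells and the Eomes-expressing cells hold at a higher level. In a bulk library, fewer cells with a transcript and less transcript per cell cannot be told apart.

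The libraries held 648413022 to 837308168 locus counts. Eomes itself, the sorted gene, had a mean of 46.5 in ESC, 139 in Eo- and 536 in Eo+ libraries. The summed level of 34 primitive streak and ME markers was 707 to 1158 in ESC, 969 to 1525 in Eo- and 4141 to 6198 in Eo+ libraries, and that of 30 pluripotency markers was 8016 to 10001, 3586 to 4209 and 2488 to 3927. The first sum includes the member Sp5 and the second the member Tdgf1. Tdgf1 held 373 to 451 of the pluripotency sum in Eo- and 899 to 1777 in Eo+ libraries. Since the rule used these values, nothing is read from the overlap of Eo- and Eo+ libraries in that sum. The summed level of 23 epiblast-type genes was 3864 to 4746 in Eo- libraries, above the 1922 to 2231 of ESC and the 2202 to 3137 of Eo+ libraries. Ncam1, the only member on that list, went the other way, with means of 12.8 in ESC, 3.76 in Eo- and 14.5 in Eo+ cells. Single libraries stood apart at some members. Eo+ replicate 1 held Gm26917 and Lars2 far above every other library, and Eo- replicate 1 held 281 of summed erythroid and endothelial markers against 36.7 to 65.1 in the other Eo- libraries, although the Eo+ libraries also held 65.9 to 253. The ESC libraries differed in the sum of 15 fibroblast-type markers that are not members, at 310 in replicate 1, 246 in replicate 5, 145 in replicate 2 and 119 in replicate 6, against 36.9 to 50.8 in Eo- and 44.2 to 61.0 in Eo+ libraries. Their part in the results was not tested.

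The lower of the ESC and Eo+ means exceeded the Eo- mean by a median of 2.35-fold over the 54 members, and by over 3-fold at 12 of them. Eo- means ran from 0.786 for Tnc to 559 for Gm26917. These values chose the members and are given as a description. Just inside the threshold lay Slc2a3, with an Eo- mean at 0.499 of the lower of the other means, and Vegfc and Epha4, each at 0.489. Just outside lay Gm15564 at 0.503, and AI464131 and Esyt1, both at 0.508. Ackr3, Grhl3 and Apobec2 had Eo- means low enough but missed the level of 5, with lower means of 4.95, 4.77 and 4.57. All 4 Eo- libraries lay below all 4 ESC libraries at 51 members (27.3% of all loci tested), below all 4 Eo+ libraries at 43 (21.8%) and below both at 41 (2.83%). Since the rule used these contrasts, nothing is read from those shares. Membership leaned on single libraries at the edge of the rule. Without Eo+ replicate 1, 9 members left the set, namely Tnc, Smarcd3, Gm26917, Rsph4a, Lars2, Hbegf, Ahnak, Vegfc and Slc2a3, and without Eo- replicate 5, 13 did. The members lay on 16 chromosomes. The closest pair, Stard8 and Efnb1, lay 61.4 kb apart on the X chromosome.

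**Figure D1:**
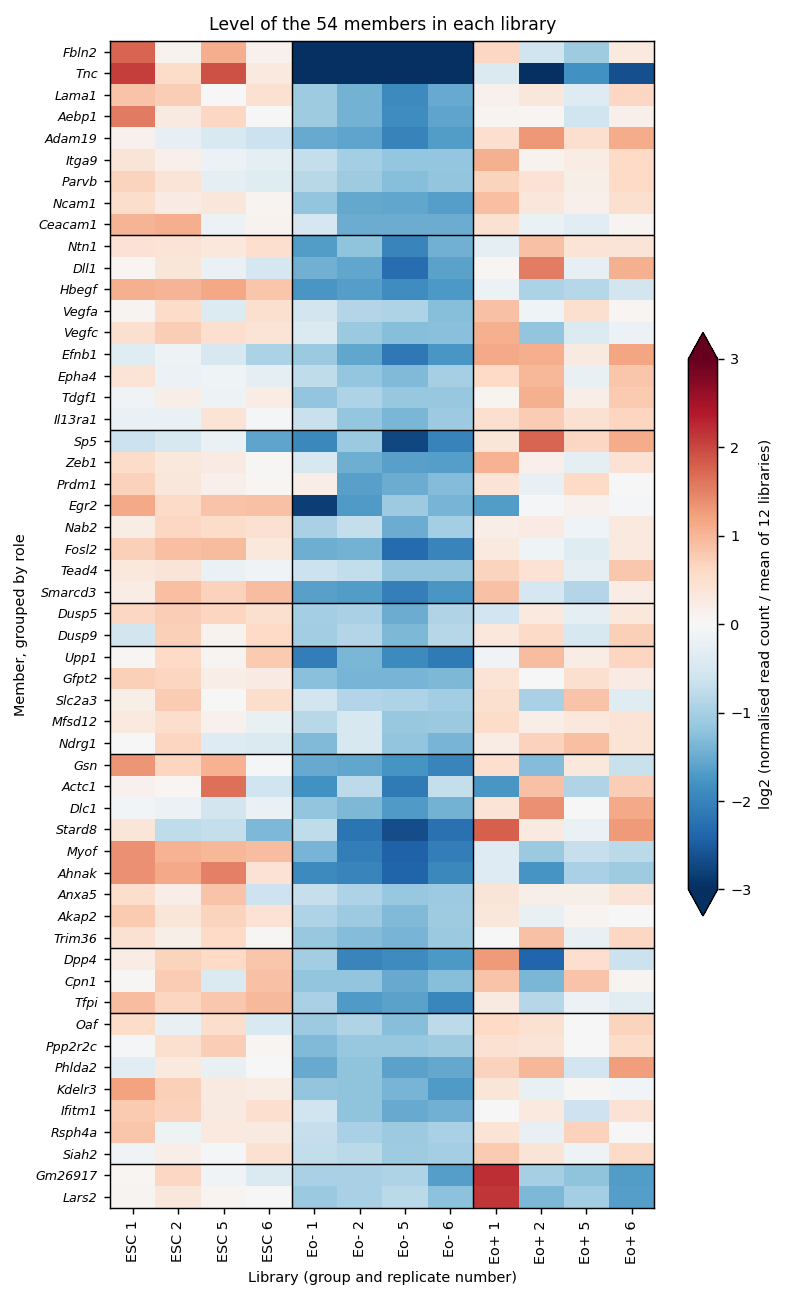
Heat map of the 54 members (rows, grouped by role and separated by lines) in the 12 libraries (columns), as log2 of the normalised read count over the mean of the 12 libraries, with colours ending at -3 and 3. The Eo- columns are blue throughout apart from Prdm1 in Eo- 1, while the Eo+ columns vary from library to library, with Gm26917 and Lars2 dark red in Eo+ 1 and blue in the other Eo+ libraries.

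The rule set no direction between Eo+ and ESC cells, and this comparison was tested at each locus. It was not free of the rule, however. Both means had to be at least 2-fold the Eo- mean, so loci at which either group came near the Eo- level are not members, and a mean raised by a single library could admit a locus. Counts over the members are therefore a description. Of the 54, 9 were higher in Eo+ cells (35.7% of all 17974 loci tested) and 15 lower (36.2%) with limma at an adjusted p of at most 0.05, and 30 did not pass. Among named loci with ESC and Eo+ means of at least 5, 68% were called in either direction, beside 44.4% of the members, and nothing is read from these shares. The median log2 fold change of the members was -0.12, beside 0.00066 over all loci tested. The libraries of the 2 groups did not overlap at 14 members (64.3% of all loci tested), all of them called. With a change of at least 2-fold as well, 4 members were higher (16.2% of loci tested) and 7 lower (22%). With libraries blocked by replicate number, 13 members were higher and 18 lower. None of the 24 lost its call, and Dll1, Itga9, Parvb and Phlda2 were added to those higher and Ceacam1, Lama1 and Nab2 to those lower. The rises were led by Sp5, Efnb1, Stard8 and Adam19, and the falls by Tnc, Ahnak, Myof and Hbegf.

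**Figure D2:**
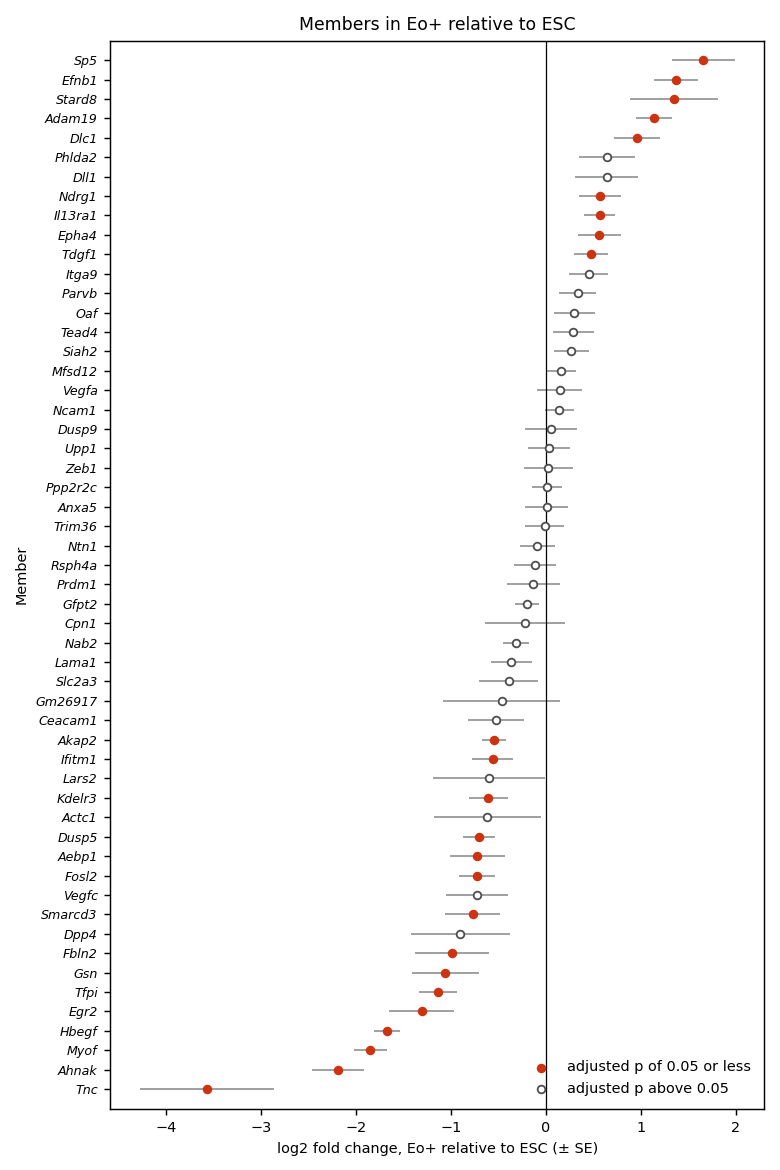
Log2 fold change of each member in Eo+ relative to ESC from limma (points, bars ± SE), with filled points for the 24 members at an adjusted p of 0.05 or less. The values run from -3.57 ± 0.71 at Tnc to 1.66 ± 0.33 at Sp5, with 30 members drawn as open points from -0.90 at Dpp4 to 0.64 at Phlda2.

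Matrix and adhesion genes made up 9 members, and they held the members with the deepest Eo- minimum. Fbln2 (chromosome 6, 91212455 to 91332424, plus strand, in mm10 as for all positions) encodes fibulin-2, a glycoprotein of the extracellular matrix. Its level in replicates 1, 2, 5 and 6, the order kept throughout, was 91.5, 29.1, 57.9 and 29.4 in ESC, 3.38, 3.24, 2.39 and 2.74 in Eo- and 41.9, 18, 12.9 and 33 in Eo+ libraries. The Eo- libraries were tightly grouped and far below all others, and the lower of the other means was 8.99-fold the Eo- mean. Between Eo+ and ESC the libraries of Fbln2 overlapped (log2 fold change -0.99 ± 0.39, limma adjusted p = 0.034), and the call was lost without ESC replicate 1 or 5 or without Eo+ replicate 2 or 5, with an adjusted p of up to 0.117, and also with no filter on low values or with only the 8 libraries compared in the fit. Tnc (chromosome 4, 63959663 to 64047015, minus strand) encodes tenascin-C, a matrix glycoprotein that modulates adhesion. It stood at 78.8, 27.6, 70.6 and 23 in ESC, 2.15, 0.243, 0.346 and 0.409 in Eo- and 13.8, 0.87, 5.32 and 3.04 in Eo+ libraries. Eo+ replicate 2 lay below the highest Eo- library, Eo- replicate 1, so these groups overlapped. Tnc had the steepest fall of all members from ESC to Eo+ cells (log2 fold change -3.57 ± 0.71, limma adjusted p = 4.26e-04, all Eo+ libraries below all ESC libraries), and its log2 fold change was -4.22 without Eo+ replicate 1 and -2.83 without Eo+ replicate 2.

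**Figure D3:**
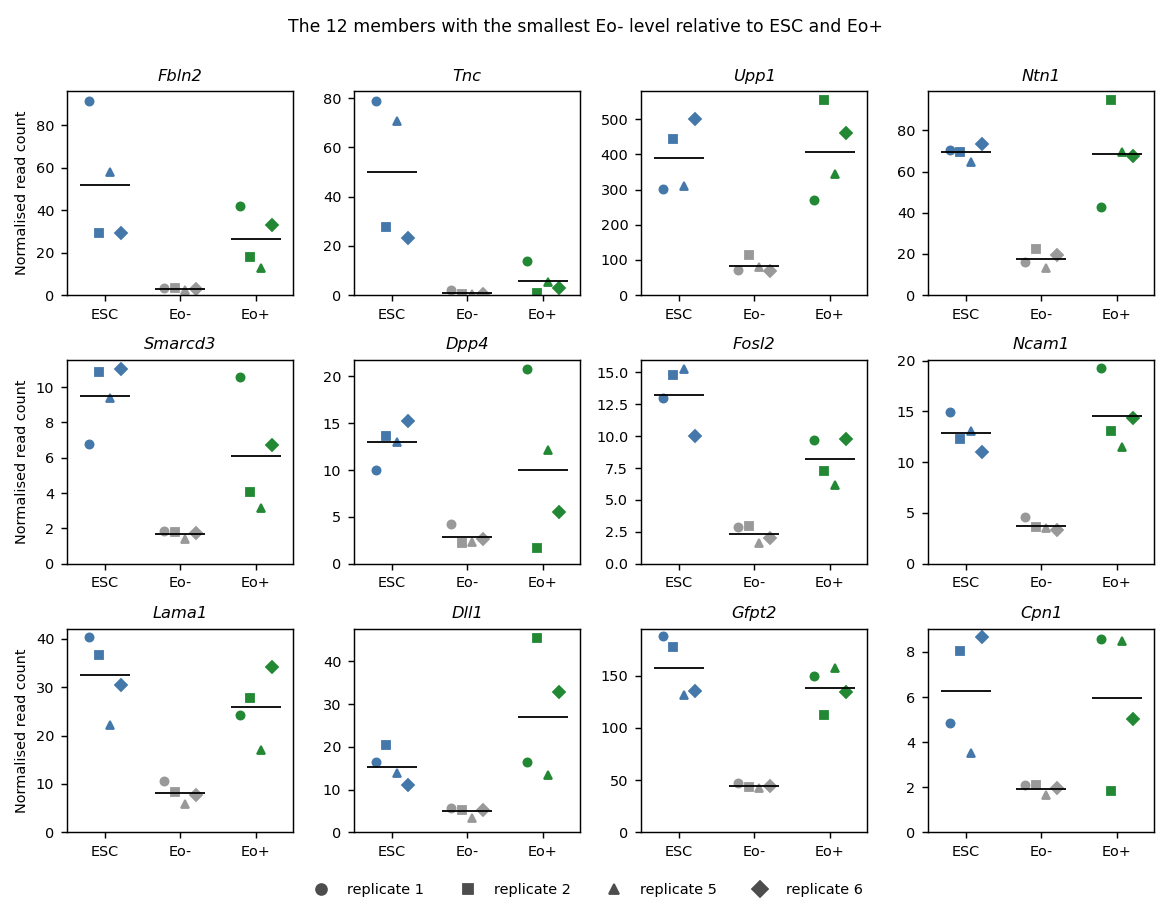
Normalised read counts (y axis, starting at 0) of the 12 members with the smallest Eo- mean relative to the lower of the other means, by group, with a symbol per replicate number and a line at the mean of 4 libraries. Fbln2 and Tnc show wide ESC groups with replicates 1 and 5 on top, whereas the Eo- libraries cluster near the bottom of every panel and overlap Eo+ only at Tnc, Dpp4 and Cpn1.

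The remaining adhesion members kept intermediate or high levels in Eo+ cells. Lama1, the alpha 1 chain of the laminin of basement membranes, had means of 32.4 ± 7.95 in ESC, 8.13 ± 1.9 in Eo- and 25.8 ± 7.17 in Eo+ cells (SD, n = 4 here and below). It did not pass in Eo+ vs ESC, but was called lower with the replicate block (limma adjusted p = 0.0189) and without ESC replicate 5 (0.0248). Adam19 encodes a membrane-anchored metalloprotease. It was at 149, 115, 99.3 and 86.9 in ESC, 47.9, 45.5, 34.3 and 42.4 in Eo- and 194, 336, 193 and 297 in Eo+ libraries. The 3 groups did not overlap, and Adam19 rose from ESC to Eo+ cells (log2 fold change 1.14 ± 0.19, limma adjusted p = 1.09e-04). Aebp1, which encodes a secreted collagen-binding protein, fell (log2 fold change -0.72 ± 0.29, limma adjusted p = 0.0391), but lost the call without ESC replicate 1 or 5 or without Eo+ replicate 2 or 5, with an adjusted p of up to 0.118, and also with no filter on low values or with only the 8 libraries compared. Itga9, an integrin chain that can bind tenascin-C, had means of 17 ± 3.63, 8.24 ± 1.29 and 24.1 ± 7.56 in ESC, Eo- and Eo+ cells, with an adjusted p of 0.0581 in Eo+ vs ESC. It was called higher under 7 other settings, among them edgeR (adjusted p = 0.0498), library totals (0.0471) and the replicate block (0.00534). The cell adhesion molecule Ncam1 had an Eo- mean of 3.76 ± 0.567, against 12.8 ± 1.62 in ESC and 14.5 ± 3.36 in Eo+ cells, and its log2 fold change between the latter was 0.14 ± 0.15. Parvb, a partner of integrin-linked kinase, and the locus that joins Ceacam1 with its paralog Ceacam2 did not pass the test either. With the replicate block Parvb was called higher (limma adjusted p = 0.0438) and the Ceacam1 locus lower (0.0180). The counts of the joined locus cannot be assigned to one of the paralogs.

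In a list of 59 matrix genes, of which Fbln2, Lama1 and Tnc are members, 17 of the 58 tested were higher and 32 lower in Eo+ than in ESC libraries. Fbln2 and Tnc were among those lower, and Lama1 did not pass. In a list of 40 integrin and adhesion genes, 17 of 39 were higher and 14 lower. Both lists stand beside 35.7% higher and 36.2% lower of all loci tested.

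Signalling ligands and receptors contributed 9 members, and 4 of the 9 were higher and 1 lower in Eo+ than in ESC libraries, beside 35.7% and 36.2% of all loci tested. Efnb1 (chromosome X, 99136130 to 99149003, plus strand) encodes ephrin-B1, a membrane-bound ligand of Eph receptors. It was at 9.38, 10.8, 8.64 and 6.21 in ESC, 5.53, 4.09, 2.7 and 3.58 in Eo- and 26.5, 25.5, 14.4 and 27.1 in Eo+ libraries. No libraries of the 3 groups overlapped, and Efnb1 rose from ESC to Eo+ cells (log2 fold change 1.38 ± 0.23, limma adjusted p = 1.05e-04). Epha4, an Eph receptor, was at 26.4 ± 6.16, 12.9 ± 2.21 and 40.9 ± 13 in ESC, Eo- and Eo+ cells. It also passed the test (log2 fold change 0.56 ± 0.22, limma adjusted p = 0.0366), but not when ESC replicate 2, 5 or 6 or Eo+ replicate 1, 2 or 6 was left out, with an adjusted p of up to 0.107, nor with only the 8 libraries compared, DESeq2 size factors or a minimum of 1 CPM. Il13ra1, a receptor chain for interleukin-13, was low in ESC (4.4, 4.39, 6.73 and 4.94) and lower in Eo- libraries (3.17, 2.27, 1.96 and 2.36). All 4 Eo+ libraries lay above them at 6.99, 8.61, 6.87 and 7.84, and the rise passed the test (log2 fold change 0.57 ± 0.16, limma adjusted p = 0.00608).

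Tdgf1 (chromosome 9, 110939545 to 110961789, minus strand) encodes Cripto, the co-receptor through which Nodal signals, and is used as a marker of both pluripotent cells and the primitive streak. Per kb of exon it had the highest level of all members, 421 in ESC, 192 in Eo- and 613 in Eo+ cells. Its normalised read count was 784, 963, 758 and 995 in ESC, 373, 451, 389 and 385 in Eo- and 899, 1777, 954 and 1466 in Eo+ libraries. The Eo- libraries were the lowest without exception, and Eo+ replicates 2 and 6 the highest. Its rise from ESC to Eo+ cells (log2 fold change 0.48 ± 0.18, limma adjusted p = 0.0287) was lost without ESC replicate 1 or 5 or without Eo+ replicate 2 or 6, with an adjusted p of up to 0.0865, and also with only the 8 libraries compared or a minimum of 1 CPM. Of a list of 32 TGF-beta and Nodal genes, Tdgf1 was the only member, and 15 of the list were higher and 15 lower in Eo+ vs ESC. It was also the only member among 30 pluripotency genes, of which 3 were higher and 26 lower. Over all loci tested, 35.7% were higher and 36.2% lower. Dll1, a Notch ligand, was at 16.4, 20.3, 13.8 and 11.1 in ESC, 5.81, 5.33, 3.25 and 5.18 in Eo- and 16.5, 45.5, 13.3 and 32.8 in Eo+ libraries. Its Eo+ replicates 2 and 6 were above every ESC library and its Eo+ replicates 1 and 5 were within the ESC range, and the test gave an adjusted p of 0.0995 with limma. Dll1 was called higher by DESeq2 (adjusted p = 0.0309), by edgeR (0.0475) and with the replicate block (0.0274), as well as without Eo+ replicate 1 (0.0420) or 5 (0.0147).

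Hbegf encodes a membrane-anchored ligand of the epidermal growth factor receptor and was the member of this kind that fell. It was at 27.5, 26.5, 29.1 and 23.2 in ESC, 3.9, 4.11, 3.56 and 3.93 in Eo- and 11.6, 6.77, 7.23 and 8.9 in Eo+ libraries. The 3 groups formed 3 separate steps, with Eo+ between the others (log2 fold change -1.67 ± 0.14, limma adjusted p = 1.35e-07). Ntn1 encodes netrin-1, a secreted guidance cue. It stood at 70.3, 69.4, 64.5 and 73.5 in ESC, 16.3, 22.3, 13.1 and 19.2 in Eo- and 42.6, 94.9, 69.4 and 67.7 in Eo+ libraries. The ESC and Eo+ libraries of Ntn1 overlapped, with means of 69.4 and 68.6 and a log2 fold change of -0.09 ± 0.19 that did not pass. Of the vascular growth factors, Vegfa had means of 26.2 ± 7.33, 12.2 ± 2.43 and 29.2 ± 9.51 in ESC, Eo- and Eo+ cells, and Vegfc of 8.52 ± 0.852, 2.98 ± 0.913 and 6.1 ± 4.21. Vegfc reached 12.2 in Eo+ replicate 1 but 2.58 in Eo+ replicate 2, which lay within the Eo- range, and it was called lower in Eo+ than in ESC libraries only when Eo+ replicate 1 was left out or under 2 other settings (adjusted p = 0.0638 with all libraries, 6.41e-04 without that library).

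Among 8 transcription regulators, 1 rose and 3 fell from ESC to Eo+ cells, beside the 35.7% and 36.2% of all loci tested. Sp5 (chromosome 2, 70472979 to 70480619, plus strand) encodes a zinc finger factor and direct target of Wnt signalling. It was at 34.2, 38.2, 46.6 and 17.9 in ESC, 14, 25, 8.04 and 13.4 in Eo- and 68.8, 179, 83 and 117 in Eo+ libraries. Every Eo+ library exceeded every ESC library, and Sp5 had the largest rise of the 54 members (log2 fold change 1.66 ± 0.33, limma adjusted p = 4.60e-04). The ESC and Eo- groups of Sp5 overlapped, since ESC replicate 6 lay below Eo- replicate 2. In a list of 41 Wnt pathway genes, of which Sp5 was the only member, 24 were higher and 9 lower in Eo+ vs ESC, and in a list of 34 primitive streak and ME genes 29 were higher and 3 lower.

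Fosl2, a subunit of the AP-1 transcription factor, was at 13, 14.8, 15.3 and 9.97 in ESC, 2.86, 2.98, 1.61 and 2.01 in Eo- and 9.71, 7.25, 6.19 and 9.76 in Eo+ libraries. Its Eo+ libraries lay between those of the other groups without overlap (log2 fold change -0.72 ± 0.19, limma adjusted p = 0.00327). Egr2 encodes an immediate early zinc finger factor and was at 15.3, 10.4, 12.7 and 12.9 in ESC, 0.989, 2.14, 3.3 and 2.66 in Eo- and 2.19, 6.79, 7.67 and 6.8 in Eo+ libraries. All Eo+ libraries were below the ESC libraries (log2 fold change -1.31 ± 0.34, limma adjusted p = 0.00335), while Eo+ replicate 1 lay in the Eo- range. Nab2, a corepressor that binds EGR proteins, had means of 14.1 ± 1.59, 5.01 ± 1.07 and 11.4 ± 1.36 in ESC, Eo- and Eo+ cells, with an adjusted p of 0.0523 in Eo+ vs ESC. It was called lower under 8 other settings, among them DESeq2 (adjusted p = 0.0317), DESeq2 size factors in limma (0.0286) and the replicate block (0.0422). Smarcd3 encodes BAF60c, a subunit of chromatin remodelling complexes that works with T-box factors in the heart. It was at 6.75, 10.8, 9.37 and 11 in ESC, 1.88, 1.81, 1.39 and 1.72 in Eo- and 10.5, 4.06, 3.14 and 6.73 in Eo+ libraries. Eo+ replicate 1 stood within the ESC range and the other Eo+ libraries below it, and the fall (log2 fold change -0.77 ± 0.29, limma adjusted p = 0.0271) was lost without ESC replicate 2 or 6 or without Eo+ replicate 2 or 5, with an adjusted p of up to 0.107, and with edgeR (0.0723).

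The remaining regulators did not pass in Eo+ vs ESC. Tead4, a partner of the YAP coactivator, had means of 14.9 ± 3.01, 7.24 ± 1.45 and 18.9 ± 5.53 in ESC, Eo- and Eo+ cells, and was called higher only without Eo+ replicate 5 (adjusted p = 0.0126). Of 23 tested YAP and TEAD target genes, among which Tead4 was the only member, 7 were higher and 10 lower in Eo+ vs ESC. Zeb1, a repressor of the E-cadherin gene, had 9.61 ± 1.38, 3.37 ± 1.51 and 10.4 ± 4.14. Of 30 genes of BMP signalling, among which Prdm1 was the only member, 19 were higher and 4 lower. For this list and the YAP and TEAD list, the shares over all loci tested were 35.7% higher and 36.2% lower. Prdm1, the repressor that specifies primordial germ cells, was the only member whose Eo- libraries overlapped both other groups. It was at 22.2, 17.3, 15.2 and 14.3 in ESC, 15.8, 4.44, 4.91 and 5.6 in Eo- and 18.3, 11.8, 20.7 and 13.9 in Eo+ libraries. The overlap came from Eo- replicate 1, which was at 15.8 while the other Eo- libraries were at 4.44 to 5.60. Eo- replicate 1 was the highest Eo- library at 35 of the 54 members (64.8%), beside 30.7% of the 9459 loci that could have been members.

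Both MAP kinase phosphatases among the members act on ERK. Dusp5, a nuclear ERK phosphatase, was at 52.4, 56, 52.5 and 46.9 in ESC, 16.8, 17.3, 12.1 and 18.1 in Eo- and 22.6, 41.6, 28 and 41.8 in Eo+ libraries, in 3 groups that did not overlap (log2 fold change -0.70 ± 0.17, limma adjusted p = 0.00173). Dusp9, encoded on the X chromosome, had means of 94 ± 33.4, 37.7 ± 5.56 and 97.6 ± 31.1 in ESC, Eo- and Eo+ cells, and a log2 fold change of 0.05 ± 0.27 in Eo+ vs ESC that did not pass. Dusp5, Fosl2 and Egr2 belong to a list of 39 immediate early and stress genes, of which 38 were tested, 5 were higher and 26 lower in Eo+ vs ESC. All 3 members of that list were among those lower, beside 36.2% of all loci tested. A list of 23 FGF and ERK pathway genes held no member, and 12 of them were higher and 6 lower (35.7% and 36.2% of all loci tested).

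Metabolic enzymes and transporters and a gene induced by low oxygen made up 5 members. Upp1 (chromosome 11, 9118103 to 9136170, plus strand) encodes uridine phosphorylase, which releases ribose phosphate from uridine. It was at 302, 445, 309 and 502 in ESC, 69.8, 113, 78.4 and 67.1 in Eo- and 271, 554, 344 and 462 in Eo+ libraries. ESC and Eo+ libraries overlapped widely (log2 fold change 0.03 ± 0.22), and both groups stood well above every Eo- library, with the lower mean 4.75-fold the Eo- mean. Gfpt2, an enzyme of hexosamine synthesis, showed the same arrangement, with 188, 177, 131 and 135 in ESC, 47.5, 43.4, 42.9 and 44.7 in Eo- and 150.1, 113, 158 and 134 in Eo+ libraries. Its log2 fold change in Eo+ vs ESC was -0.20 ± 0.13, which did not pass. Slc2a3, the glucose transporter GLUT3, was at 731, 1098, 639.9 and 928 in ESC, 441, 347, 336 and 312 in Eo- and 898, 326, 1157 and 496 in Eo+ libraries. Its Eo+ libraries were split, with replicates 1 and 5 in or above the ESC range and replicate 2 within the Eo- range, and it was called lower only without Eo+ replicate 5 (adjusted p = 0.0419). Ndrg1, which is induced by low oxygen, was higher in Eo+ cells (log2 fold change 0.57 ± 0.23, limma adjusted p = 0.0355), but not without ESC replicate 1, 5 or 6 or without Eo+ replicate 2 or 5, with an adjusted p of up to 0.112. The call was also lost with DESeq2 (0.0788), edgeR (0.0766), a minimum of 1 CPM in at least 4 libraries (0.0646), DESeq2 size factors in limma (0.0506) and only the 8 libraries compared (0.0502). In a list of 31 hypoxia and glycolysis genes, which holds Slc2a3, Ndrg1 and Vegfa, 4 were higher and 15 lower in Eo+ vs ESC (35.7% and 36.2% of all loci tested). Mfsd12, a transporter in lysosomal membranes, had means of 19.4 ± 4.1, 9.2 ± 2.01 and 21.8 ± 2.37 in ESC, Eo- and Eo+ cells.

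Cytoskeletal and membrane-associated proteins were encoded by 9 members, of which 2 rose and 4 fell from ESC to Eo+ cells, beside the 35.7% and 36.2% of all loci tested. Both that rose, Dlc1 and Stard8, encode GTPase-activating proteins. Dlc1 was at 78.5, 73.1, 56.1 and 71.8 in ESC, 36.5, 32.3, 25.6 and 31.1 in Eo- and 109.99, 213, 82.3 and 182 in Eo+ libraries, without overlap between groups (log2 fold change 0.96 ± 0.24, limma adjusted p = 0.00251). Its relative Stard8 was at 16.5, 7.57, 7.85 and 5.05 in ESC, 7.56, 2.81, 2.02 and 2.72 in Eo- and 44.2, 15.4, 11.2 and 31.1 in Eo+ libraries. The ESC libraries of Stard8 overlapped both other groups (log2 fold change 1.35 ± 0.46, limma adjusted p = 0.0179), and the call was lost without ESC replicate 6 (adjusted p = 0.0583).

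The falls were led by large membrane-associated proteins. Ahnak (chromosome 19, 8989151 to 9076919, plus strand) encodes a giant scaffold protein and was at 61.7, 52, 68.4 and 32.1 in ESC, 6.38, 6.02, 4.5 and 6.2 in Eo- and 18.2, 6.94, 12.2 and 11.4 in Eo+ libraries. Even the lowest ESC library exceeded the highest Eo+ library (log2 fold change -2.19 ± 0.28, limma adjusted p = 7.13e-06), and Eo+ replicate 2, at 6.94, was only just above the Eo- libraries. Myof encodes myoferlin, a ferlin of the plasma membrane, and was at 40.9, 32.1, 31.1 and 29.9 in ESC, 5.97, 3.74, 2.91 and 3.75 in Eo- and 12, 7.31, 9.71 and 9 in Eo+ libraries. Like Ahnak, it formed 3 separate groups with Eo+ next to Eo- (log2 fold change -1.85 ± 0.17, limma adjusted p = 4.31e-07). Gsn, the actin-severing protein gelsolin, had means of 32.3 ± 12.1, 5.65 ± 0.818 and 16.9 ± 8.85 in ESC, Eo- and Eo+ cells and fell (log2 fold change -1.06 ± 0.35, limma adjusted p = 0.0155), but lost the call without Eo+ replicate 2 (adjusted p = 0.0626). The locus of Akap2, an anchor of protein kinase A, is joined with Palm2, and fell as a whole (log2 fold change -0.54 ± 0.13, limma adjusted p = 0.00154).

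The other cytoskeletal members did not pass. Anxa5 encodes annexin A5, which binds phosphatidylserine, and its locus includes the microRNA gene Mir7009. It was at 50.1, 39.8, 63.1 and 22.6 in ESC, 21.4, 18.3, 15.7 and 16.2 in Eo- and 45.5, 39.5, 39 and 45.8 in Eo+ libraries, and the Eo+ libraries lay inside the ESC range (log2 fold change 0.01 ± 0.23). In a list of 20 annexins, S100 proteins and galectins, 3 were higher and 16 lower in Eo+ vs ESC (35.7% and 36.2% of all loci tested), and Anxa5 was the only one that did not pass. Actc1, cardiac alpha-actin, was at 8.36, 7.95, 24 and 5.04 in ESC, 2.17, 4.42, 1.77 and 4.65 in Eo- and 2.29, 14.1, 4.12 and 12.8 in Eo+ libraries. ESC replicate 5 was far above the other ESC libraries, and Eo+ replicates 1 and 5 lay within the Eo- range. Trim36, a ubiquitin ligase that binds microtubules, had a log2 fold change of -0.01 ± 0.21.

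Proteins that act on the cell surface or in plasma were encoded by 3 members. Dpp4 encodes a membrane-bound dipeptidyl peptidase. It was at 10.1, 13.6, 13 and 15.3 in ESC, 4.2, 2.2, 2.32 and 2.61 in Eo- and 20.8, 1.65, 12.1 and 5.49 in Eo+ libraries. The Eo+ libraries of Dpp4 ran from below the lowest Eo- library in replicate 2 to above the highest ESC library in replicate 1 (log2 fold change -0.90 ± 0.52, limma adjusted p = 0.136). The log2 fold change was -1.45 with an adjusted p of 0.0108 without Eo+ replicate 1. Cpn1, the catalytic chain of carboxypeptidase N, was at 4.86, 8.04, 3.51 and 8.67 in ESC, 2.08, 2.08, 1.65 and 1.95 in Eo- and 8.56, 1.82, 8.5 and 5.01 in Eo+ libraries, again with Eo+ replicate 2 in the Eo- range. Tfpi, an inhibitor of the tissue factor pathway of coagulation, was at 51, 42.2, 47.3 and 52.6 in ESC, 13.7, 8.23, 8.85 and 6.94 in Eo- and 32.4, 14.8, 23.8 and 21.1 in Eo+ libraries. Its groups did not overlap, and it fell from ESC to Eo+ cells (log2 fold change -1.14 ± 0.20, limma adjusted p = 1.34e-04).

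Of 7 members with other roles, 2 fell, Kdelr3 and Ifitm1, beside 36.2% of all loci tested. Ifitm1, an interferon-induced transmembrane protein also found in pluripotent cells, was at 265, 249.98, 187 and 221 in ESC, 103, 67.6, 54.2 and 56.8 in Eo- and 155, 191, 99.9 and 209 in Eo+ libraries. Eo+ replicate 5 lay below Eo- replicate 1, and the fall (log2 fold change -0.56 ± 0.22, limma adjusted p = 0.0322) was lost without ESC replicate 1, 2 or 6 or without Eo+ replicate 1 or 5, with an adjusted p of up to 0.115, and also with edgeR or with no filter on low values. Kdelr3, a receptor that returns proteins to the endoplasmic reticulum, fell (log2 fold change -0.61 ± 0.21, limma adjusted p = 0.0177), but not without ESC replicate 1 (adjusted p = 0.0515) or Eo+ replicate 2 (0.0576). Phlda2, an imprinted gene that restrains placental growth, was at 73.4, 112, 78.2 and 89.97 in ESC, 32.2, 39.7, 30.2 and 31.7 in Eo- and 147, 183, 61.7 and 217 in Eo+ libraries. The Eo+ replicates 1, 2 and 6 exceeded all ESC libraries and replicate 5 lay below them, with an adjusted p of 0.0619 (3.71e-05 without that library). Phlda2 was also called higher by DESeq2 (adjusted p = 0.0135), by edgeR (0.0232), with library totals (0.0418) and with the replicate block (0.0166). Ppp2r2c, a regulatory subunit of protein phosphatase 2A, had means of 19.3 ± 4.88, 6.78 ± 0.533 and 19.4 ± 2.9 in ESC, Eo- and Eo+ cells. Siah2, a ubiquitin ligase, Rsph4a, a radial spoke protein of cilia, and Oaf did not pass in Eo+ vs ESC, although Siah2 was called higher without Eo+ replicate 5 (adjusted p = 0.0168).

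Gm26917 and Lars2, a mitochondrial leucyl-tRNA synthetase, were members only with Eo+ replicate 1 in the mean. Gm26917 (chromosome 17, 39844899 to 39849118, plus strand, joined with Yam1) was at 1253, 1830, 1116 and 890.1 in ESC, 613, 611, 634 and 379.6 in Eo- and 5527, 601, 521 and 372 in Eo+ libraries. Lars2 (chromosome 9, 123366876 to 123464657, plus strand) was at 194, 234, 193 and 185 in ESC, 85, 93.7, 104 and 78.7 in Eo- and 819, 71.9, 90.4 and 58.5 in Eo+ libraries. Apart from Eo+ replicate 1, the Eo+ libraries of both loci lay at or below the Eo- range or within it. Both left the set when Eo+ replicate 1 was left out, and Gm26917 also when ESC replicate 2 was. Without Eo+ replicate 1 both were lower in Eo+ than in ESC libraries, with log2 fold changes of -1.34 (limma adjusted p = 2.03e-04) for Gm26917 and -1.48 (6.98e-07) for Lars2. The ratio of Gm26917 to Lars2 stayed between 4.80 and 8.36 over the 12 libraries, and was 6.75 in Eo+ replicate 1, although the loci lie on different chromosomes.

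**Figure D4:**
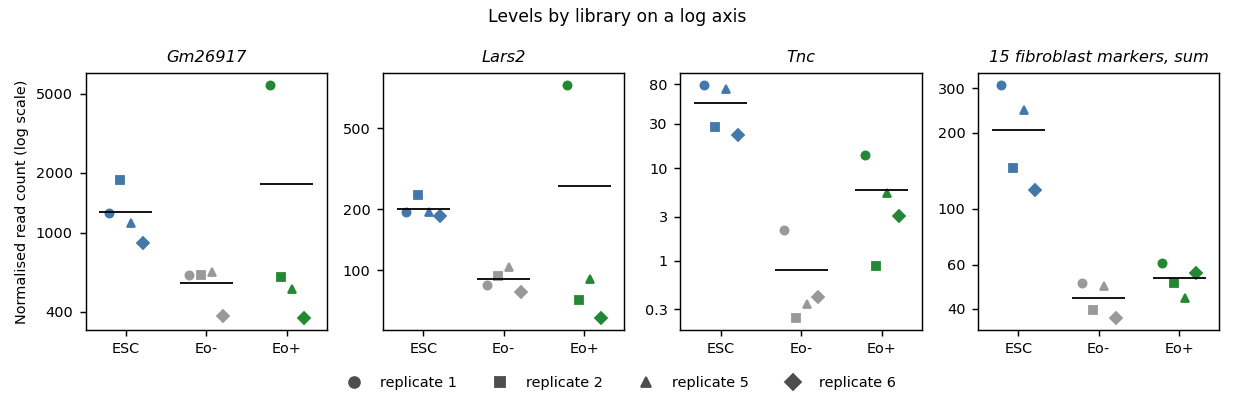
Normalised read counts on log axes of Gm26917, Lars2 and Tnc and the sum of 15 fibroblast-type markers that are not members, by group, with a symbol per replicate number and a line at the mean of 4 libraries. Gm26917 and Lars2 stand at 5527 and 819 in Eo+ replicate 1, above all other libraries, and ESC replicates 1 and 5 are on top for both Tnc and the marker sum.

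The highest Eo+ library was at least 2-fold above the lowest at 29 of 54 members (53.7%), against 16 in ESC (29.6%) and 9 in Eo- libraries (16.7%). Among the 9459 loci that could have been members these shares were 3.34%, 2.88% and 1.19%. The rule used the group means, which a single library can raise or lower, so nothing is read from these shares. In the Eo+ group replicates 1 and 6 both lay above replicates 2 and 5 at 19 members (35.2%, beside 11% of all loci tested), replicates 2 and 6 above 1 and 5 at 16 (29.6%, beside 26.7%) and replicates 1 and 5 above 2 and 6 at 15 (27.8%, beside 25%). The other 3 arrangements held at 1 to 2 members each. Fbln2, Fosl2, Efnb1, Hbegf, Stard8 and Smarcd3 were among those with replicates 1 and 6 on top. Sp5, Dll1, Tdgf1, Dlc1, Adam19, Phlda2 and Actc1 were among those with replicates 2 and 6 on top, and Dpp4, Cpn1, Slc2a3, Tfpi, Gsn and Tnc among those with replicates 1 and 5 on top. These arrangements were looked at after the values were seen. Marker sums of the Eo+ libraries were not alike either. In replicates 1, 2, 5 and 6, the primitive streak and ME markers summed to 4245, 6198, 4141 and 5641, with replicates 2 and 6 on top, as was the case for Eomes itself (453, 656, 449.9 and 584). The 14 erythroid and endothelial markers summed to 253, 149, 65.9 and 225, with replicates 1 and 6 on top, and 30 primitive and visceral endoderm markers to 2837, 2000, 2413 and 2361, with replicates 1 and 5 on top. The 15 fibroblast-type markers that are not members also had replicates 1 and 6 on top (61.0, 50.5, 44.2 and 55.7). Replicates 2 and 6 were on top for the pluripotency markers too (2488, 3927, 2930 and 3445). For the epiblast-type genes replicates 2 and 5 were (2202, 2634, 3137 and 2431). No arrangement is assigned to a list. Their part in the members' spread was not tested.

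**Figure D5:**
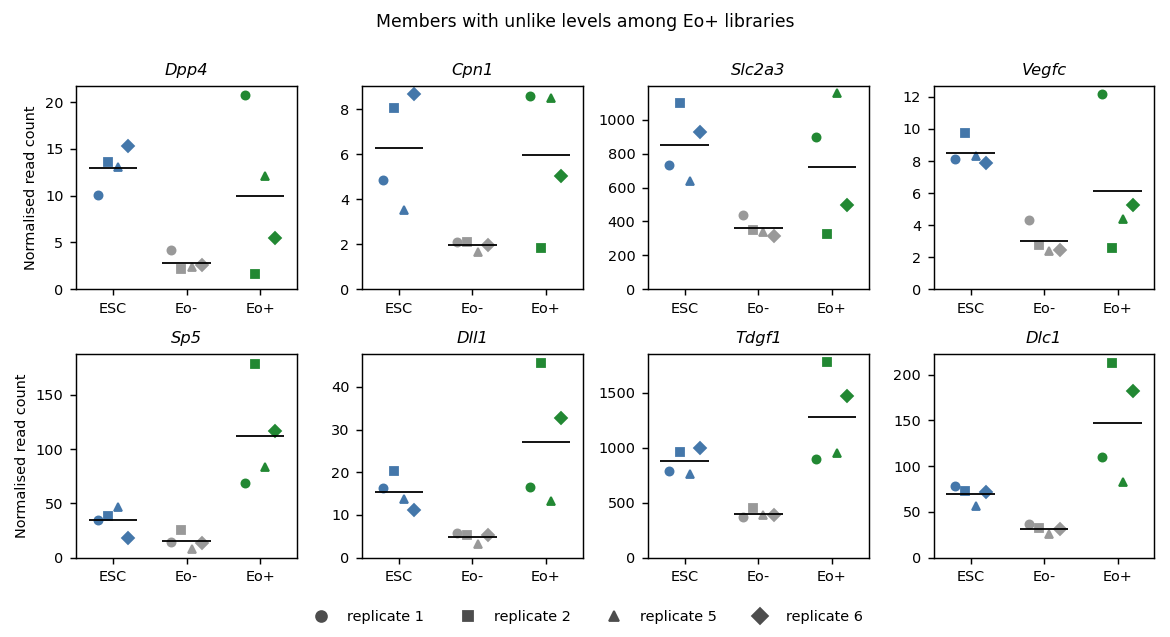
Normalised read counts (y axis, starting at 0) of 8 members by group, with a symbol per replicate number and a line at the mean of 4 libraries. In the upper row (Dpp4, Cpn1, Slc2a3 and Vegfc) Eo+ replicate 2 is the lowest Eo+ library, and in the lower row (Sp5, Dll1, Tdgf1 and Dlc1) Eo+ replicates 2 and 6 are above replicates 1 and 5.

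The ESC libraries were also compared in their order with the fibroblast-type markers. Tnc, Ncam1, Gsn, Aebp1, Stard8, Oaf and Epha4, 7 of 54 members (13%), had the same order of the 4 ESC libraries as the marker sum (replicates 1, 5, 2 and 6 from high to low), beside 5.81% of the 9459 loci that could have been members. Replicates 1 and 5 both lay above replicates 2 and 6 at 15 members (27.8%, beside 19.9% of all loci tested). More members, 19 (35.2%, beside 17.3%), had replicates 1 and 2 above 5 and 6, which is not the arrangement of the marker sum, and 10 had replicates 2 and 6 on top. Of the 16 fibroblast-type markers, among which Fbln2 is the only member, 13 had their highest mean in ESC, and Mmp3 was at 0 in every Eo- and Eo+ library. Thy1 was highest in Eo- cells, and Twist1 and Pdgfrb were highest in Eo+ cells. Apart from Fbln2, the markers with the highest Eo+ means were Twist1 (15.9), Pdgfrb (11.7), Col1a2 (10.5) and Thy1 (7.61). Of these, only Col1a2 had its highest mean in ESC. Lox, S100a4 and Col3a1 had means of 26.8, 11.9 and 11.9 in ESC and 0.164, 0.00753 and 0.0611 in Eo+ cells. Col1a1 had 63.9 and 3.26. Beside these values, Fbln2 stood at 26.4 and Tnc at 5.77 in Eo+ cells, where the sum of the other markers was 44.2 to 61.0. The part of feeder cells in the ESC levels of these members was not tested.

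Promoter sequences from RefSeq (GRCm38.p6, 250 bases before to 50 after a start site) were found for 39 members and were searched on both strands for motifs of factors that act in these cells. The serum response (CArG) box, CC and GG around 6 letters that are A or T, was found at 4 members, Actc1, Anxa5, Dusp5 and Egr2 (10.3%, against 1.81% of 27018 genes). The AP-1 motif TGANTCA was found at 6 members, Adam19, Dll1, Gfpt2, Itga9, Prdm1 and Upp1 (15.4%, against 8.98%). The SMAD motif GGCGCC was found at 25.6% of members (13.4% of genes), the TEAD motif GGAATG at 15.4% (16.6%), the GATA motif AGATAA at 10.3% (12.7%), the E-box CANNTG at 69.2% (75.0%) and the T-box motif AGGTGTGA at none of the 39 (1.48%). A match describes the letters only. Stretches of 7 promoters of 6 members follow as examples of these motifs, and those of Anxa5, Gfpt2, Itga9 and Prdm1 are not shown. They show CArG boxes (Dusp5, Egr2 and Actc1) or AP-1 motifs (Upp1, Adam19 and Dll1) in capitals with 25 bases on either side, and both boxes of Dusp5 adjoin each other. Egr2 has a box in each of 2 RefSeq promoters.
Dusp5 (chr19:53529038-53529107, plus strand): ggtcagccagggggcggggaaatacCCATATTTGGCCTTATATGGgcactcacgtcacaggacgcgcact
Egr2 (chr10:67537469-67537528, plus strand): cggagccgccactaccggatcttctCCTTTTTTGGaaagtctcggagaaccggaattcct
Egr2 (chr10:67537772-67537831, plus strand): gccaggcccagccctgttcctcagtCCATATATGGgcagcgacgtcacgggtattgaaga
Actc1 (chr2:114052888-114052947, minus strand): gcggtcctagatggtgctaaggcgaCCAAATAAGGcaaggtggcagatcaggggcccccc
Upp1 (chr11:9117938-9117994, plus strand): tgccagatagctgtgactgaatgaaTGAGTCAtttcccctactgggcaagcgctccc
Adam19 (chr11:46055828-46055884, plus strand): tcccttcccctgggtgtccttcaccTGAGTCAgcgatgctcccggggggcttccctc
Dll1 (chr17:15377010-15377066, minus strand): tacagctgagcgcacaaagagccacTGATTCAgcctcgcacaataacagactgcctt
The CArG boxes of Dusp5 began 82 and 72 bases before the start site, those of Egr2 each 72 bases before their own start site and that of Actc1 47 bases. The AP-1 motif began 45 bases before the start site in Upp1, 131 in Adam19 and 109 in Dll1. The RefSeq start site lay 36 bases from the 5′ end of the counted locus for Dusp5, 2091 and 2394 for the 2 promoters of Egr2, 673 for Actc1, 95 for Upp1, 26 for Adam19 and 60 for Dll1. Among these genes Dusp5 and Egr2 fell from ESC to Eo+ cells, Adam19 rose, and Upp1, Dll1 and Actc1 did not pass.

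The loci next to members were not used by the rule. Within 5000 bases of a member's 5′ end, 29 loci started on the opposite strand, at 22 members, and 4 of them were tested. Of the others, 16 loci without a gene name and 1 named locus, AY036118 next to Gm26917, belonged to none of the classes that entered the test (PCGs, annotated lncRNAs and multi-exon non-annotated lncRNAs). The remaining 4 annotated and 4 non-annotated lncRNAs did not reach the minimum level. Next to Anxa5, 1810062G17Rik started 94 bases away on the opposite strand. It was at 0.306, 0.217, 0.299 and 0.240 in ESC, 0.159, 0.166, 0.118 and 0.0792 in Eo- and 0.235, 0.219, 0.339 and 0.321 in Eo+ libraries. All Eo- libraries lay below all others, and 1810062G17Rik passed as lower in Eo- vs ESC (log2 fold change -1.08 ± 0.29, limma adjusted p = 0.00557) and as higher in Eo+ vs Eo- (1.11 ± 0.29, 0.00695). Tmem194 next to Nab2 (0.48 ± 0.09, limma adjusted p = 6.78e-04) and the annotated lncRNA RP23-346J11.1 next to Epha4 (1.10 ± 0.35, 0.0187) were also higher in Eo+ vs Eo-, and Gm12166 next to Adam19 did not pass. Tmem194 and RP23-346J11.1 overlap their member, with starts 1831 and 166 bases inside it. RP23-346J11.1 was low, with means of 0.13 in ESC, 0.129 in Eo- and 0.289 in Eo+ cells, while Tmem194 had 27.6, 26.6 and 37.2. Of the 4 neighbours, 1 was thus lower in Eo- vs ESC (31.4% of all loci tested) and 3 higher in Eo+ vs Eo- (22.9%). RP23-346J11.1 lost the latter call without Eo- replicate 5 (adjusted p = 0.0567) or Eo+ replicate 6 (0.0505).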

How the data were processed

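The authors mapped paired, strand-specific reads of poly(A) RNA to mm10 with STAR, assembled and merged transcripts with Cufflinks on the Ensembl annotation, and tallied reads per merged locus with HTSeq 0.6.1. The deposited counts are unscaled. The deposited normalized table holds a signal that the authors made by dividing the counts of each library by 1 constant. Group means of this signal chose the members, from loci whose transcripts match a named reference gene, and some genes are not reported here. Members, the 20 gene lists, roles and tests were chosen with earlier results of these data known. Counts were fitted with limma 3.58.1 (voom, TMM from edgeR 4.0.16, R 4.3.3) as 1 mean per group over 12 libraries, with two-sided moderated tests adjusted by Benjamini-Hochberg over 17974 loci with a mean FPKM above 0.1 in a group, and called at 0.05. The fit was tested on simulated data. DESeq2 1.42.0, edgeR and other filters, scalings and samples were alternatives. A floor of 3 counts was at most 0.00476 of normalised signal, for counting error only. Deviations of same-numbered Eo+ and Eo- libraries correlated at 0.190 to 0.495, and those of ESC and Eo+ at -0.069 to 0.111, and the study's methods name 4 differentiation sets, so values with the number as a block are given where they change a call. Genes named were the 12 with the smallest Eo- ratio, up to 5 per list, the 5 largest rises and falls without overlap, the 3 on either side of the threshold and the 6 highest; other members were named to cover each role. No column of another sample was found (0).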

Additional observations from a re-analysis of the deposited data

Results flagged for a closer look

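In groups of 4 libraries, a single library stood far from the other 3 in 13 of 162 tests of the members (54 members in 3 groups). The test is set to flag about 1 in 20 where values are independent. However, means of these same values chose the members, and the same libraries recur, so nothing is read from the number of flags. No explanation was tested for any of the 13.

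Eo- replicate 1 was the high library at 6 members. It held 2.15 of Tnc (next highest 0.409), 5.63 of Zeb1 (2.82), 7.56 of Stard8 (2.81), 4.24 of Ceacam1 (2.14), 15.8 of Prdm1 (5.60) and 4.34 of Vegfc (2.73). Eo- replicate 2 was high for Ndrg1 at 20.1 (12.2), and Eo- replicate 6 was low for Gm26917 at 379.6, against 611 in the nearest library.

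In the Eo+ group, replicate 1 was high for Gm26917 at 5527 (next highest 601) and for Lars2 at 819 (90.4), and low for Egr2 at 2.19 (next lowest 6.79). Eo+ replicate 5 was low for Aebp1 at 9.60 (15.3) and for Efnb1 at 14.4 (25.5). No ESC library was flagged at a member.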

How the results depend on the processing

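The number of members depended on the threshold. It was 12 with Eo- at most 0.333 of both means, 138 at 0.667, 90 with a level minimum of 2 and 43 to 71 when any 1 library was left out, with 31 members kept in every case. The lowest count came without Eo- replicate 5 and the highest without Eo- replicate 1. In Eo+ vs ESC the members called higher numbered 6 to 13 and those called lower 10 to 18 when 1 library was left out, against 9 and 15. With a 2-fold change as well they numbered 4 and 7. With the replicate block, which pairs libraries by number, they were 13 and 18, with 7 calls gained and 0 lost. No result changed its direction past the threshold. The call of 24 members changed under at least 1 setting, and 14 of the 24 called members kept it under every other tool, scaling, filter and choice of libraries, 9 of them also with the 2-fold change. Of loci next to members, leaving out 1 library gave 1 lower in Eo- vs ESC and 2 to 3 higher in Eo+ vs Eo-, and within 20000 bases there were 7 and 6 of 15 tested (46.7% and 40%, beside 31.4% and 22.9% of all loci tested). Their calls were unchanged in the replicate block (1 and 3). The lowest count of a member was 185, so the spread between libraries, not depth, limits these values.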
